A study of Mus musculus with 6 samples.

Results

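The genes described here build and shape the extracellular matrix of the liver. They comprise 50 named genes in 7 role groups: fibrillar collagens, microfibrillar and fibril-associated collagens, basement membrane proteins, matrix glycoproteins with proteoglycans and elastic fibre proteins, matrix enzymes with their inhibitors, stellate and contractile genes, and genes of transforming growth factor beta (TGF-beta). They were listed by gene name, with earlier results of these data known. All 50 were found among the 23412 genes of the count table. Of these, 48 had enough counts to be tested, among 12626 tested genes in all. Timp1 and Lox did not have enough, with at most 4 and 14 counts in a library.

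RNA from whole liver of C57BL/6J mice, labelled as 8 weeks old, was sequenced. All mice had received a high-fat diet for 4 weeks, so the diet is common to both groups. The liraglutide group was injected under the skin with 300 µg/kg of liraglutide, a long-acting agonist of the glucagon-like peptide 1 receptor, for 3 days, and the control group received phosphate-buffered saline (PBS) for 3 days. Each group had 3 libraries (Lira161, Lira162 and Lira164; PBS155, PBS157 and PBS158), and the labels name no separate animals. The p-values rest on the variation among the libraries, part or all of which could be technical. The question the comparison addresses is which liver transcripts differ after short liraglutide treatment of mice fed a high-fat diet.

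The hepatic stellate cell, which stores vitamin A and lies between hepatocytes and sinusoidal endothelium, is a main source of fibrillar collagen in injured liver. On activation by TGF-beta and platelet-derived growth factor it becomes a contractile myofibroblast that expresses smooth muscle actin. Basement membranes are sheets of type IV collagen, laminin, nidogen and perlecan. The normal liver sinusoid has no continuous basement membrane, and type IV collagen lies there in discontinuous deposits, made by endothelial and stellate cells among others.

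Libraries held between 20888991 and 27007182 counts, of which the 50 genes made up between 0.337% and 0.413%. Hepatocyte markers, all 8 of them detected in every library, made up between 7.90% and 11.2% of counts. Levels are given in CPM, each count divided by its library's total and scaled alike, here normalised by the trimmed mean of M-values (TMM). The library PBS158 stood apart for these genes: it held the lowest CPM of all 6 libraries in 36 of the 48 tested genes (75.0%), against 21.5% of all tested genes. Within the liraglutide group, Lira161 was lowest in 31 of the 48 (64.6%, against 30.7% of all tested genes). Without PBS158 the estimates of 9 members changed from above 0 to below 0, and these are given beside their values.

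Only the type IV collagen genes Col4a1 and Col4a2 passed the test as higher under liraglutide, and no member passed it as lower. The test was edgeR's quasi-likelihood test, two-sided, with Benjamini-Hochberg adjustment over all 12626 tested genes and a threshold of 0.05. The 2 genes are 4.17% of the 48 tested, where 8.77% of all tested genes passed, 4.08% as higher and 4.69% as lower. At an unadjusted p below 0.05 there were 9 of the 48, all of them higher. Of all 12626 tested genes, 3230 (25.6%) were below it, 1582 as higher and 1648 as lower. The difference between these shares was not tested.

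The groups did not overlap in 6 of the 48 genes (12.5%), against 31.3% of all tested genes. Col4a1, Col4a2, Ecm1, Pdgfra and Ctgf were higher in all 3 liraglutide libraries than in any PBS library, and Col18a1 was lower. The log2 fold change had a median of 0.21 over the 48 genes and of 0.01 over all tested genes. It was above 0 in 36 of the 48 and in 6514 of all 12626 tested genes. Without PBS158 the median was 0.04 and 27 of 48 estimates were above 0, while Col4a1 and Col4a2 still passed. Without PBS155 the count of higher genes was 7: Ecm1, Hgf, Hspg2, Nid1 and Tgfb1 were added. In that fit 7.56% of all tested genes passed, in either direction.

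**Figure D1:**
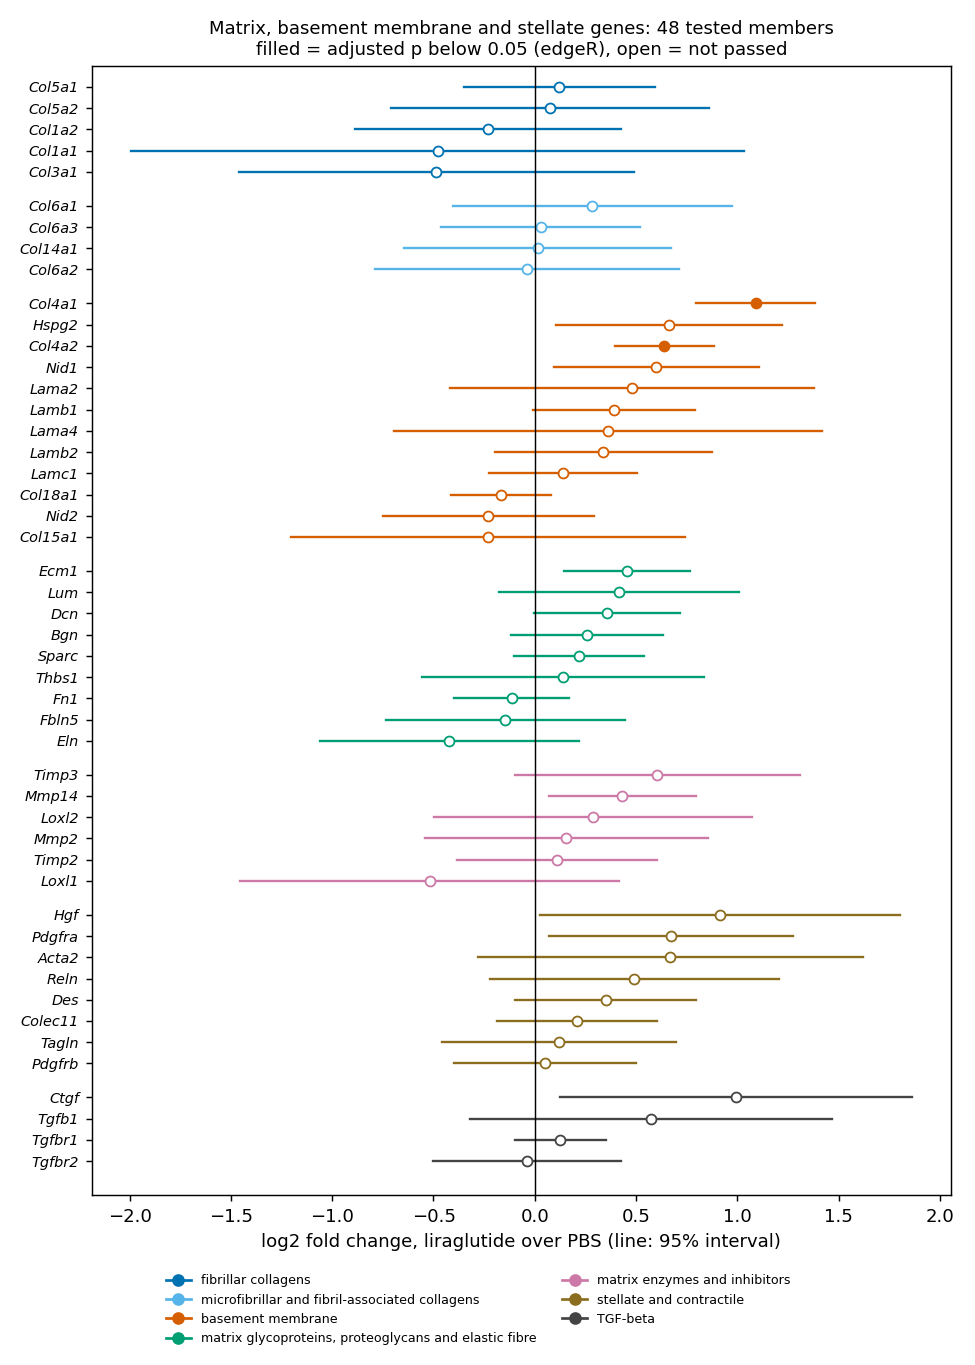
Log2 fold change (liraglutide against PBS, x axis) of each of the 48 tested genes with its 95% confidence interval, grouped by role; filled marks passed the adjusted threshold of 0.05. Only Col4a1 at 1.09 and Col4a2 at 0.64 are filled, and the others lie between -0.52 and 0.99. Their intervals range from narrow (Tgfbr1, -0.10 to 0.35) to wide (Col1a1, -2.0 to 1.04).

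Col4a1 and Col4a2 encode the alpha chains of the most widespread type IV collagen, which assemble with each other into a heterotrimer. Col4a1 was at 39.2, 52.8 and 44.3 CPM in Lira161, Lira162 and Lira164 and at 22.1, 23.0 and 18.9 CPM in PBS155, PBS157 and PBS158. The lowest liraglutide library was well above the highest PBS library. The means were 45.4 ± 6.88 and 21.3 ± 2.16 CPM (SD, n = 3 each), a log2 fold change of 1.09 ± 0.13 (SE, 95% confidence interval 0.80 to 1.38), or 2.13-fold, with an edgeR adjusted p of 0.00391.

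Col4a2 was at 27.0, 24.6 and 27.7 CPM under liraglutide and at 17.9, 17.8 and 15.1 CPM under PBS. The groups again did not overlap, and the libraries of a group lay close together. The means were 26.4 ± 1.65 and 16.9 ± 1.58 CPM (SD, n = 3 each), a log2 fold change of 0.64 ± 0.11 (SE, 95% confidence interval 0.39 to 0.88), or 1.56-fold, with an edgeR adjusted p of 0.0102. In bulk tissue, more cells of a type and more RNA per cell cannot be told apart.

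The genes lie head to head on chromosome 8 (GRCm38, the assembly of mm10, with GENCODE M21 models). Col4a1 covers chr8:11198423-11312826 on the minus strand and Col4a2 covers chr8:11312805-11449287 on the plus strand. Their annotated start sites are 21 bases apart, and their first exons share 22 bases on opposite strands, which is 0.295% of Col4a1's exon length and 0.332% of Col4a2's. In that stretch, reads of either gene could be counted for its partner. It is the only pair among the 50 genes with overlapping models: the other neighbours are Col3a1 with Col5a2, Col6a1 with Col6a2, Dcn with Lum, and Col15a1 with Tgfbr1.

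Because the pair that rose shares a start region, 3 stretches of it are shown from RefSeq's promoter windows (GRCm38.p6), each read 5′ to 3′ on the strand given. Capitals mark a CCAAT box (CCAAT, or ATTGG where it lies on the other strand) in the first and second, and a GC box (GGGCGG) in the third. The first is chr8:11312954-11312983 on the minus strand, with its motif 145 bases before the start of Col4a1. The second is chr8:11312761-11312790 on the plus strand, with its motif 32 bases before the start of Col4a2. By the gene models, the first stretch lies within the first exon of Col4a2 and the second within that of Col4a1. The third is the overlap of the first exons, chr8:11312805-11312826 on the plus strand.
Col4a1 CCAAT stretch: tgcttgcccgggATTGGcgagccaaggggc
Col4a2 CCAAT stretch: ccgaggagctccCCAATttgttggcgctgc
overlap of first exons: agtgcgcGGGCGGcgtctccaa

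Both strands of each window of 300 bases around a gene start were searched. CCAAT occurred in 37.4% of 32851 windows and in 14 of the 37 windows found for 32 of the 50 genes (37.8%). GGGCGG occurred in 35.7% of all windows and in 22 of the 37 (59.5%), once in the window of Col4a1 and in 3 places in that of Col4a2. CAGAC, the core of the element that SMAD proteins bind, occurred in 49.6% of all windows and in 23 of the 37 (62.2%). It was found once in the window of Col4a2, and these letters are not in that of Col4a1. These are matches of letters, not measured binding.

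The 2 collagen chains were also set against each other. The ratio of Col4a1 to Col4a2 CPM was 1.45, 2.15 and 1.598 under liraglutide and 1.23, 1.29 and 1.25 under PBS, with Lira162 highest. The difference in mean log2 ratio was 0.44, with an exact two-sided permutation p of 0.10, the smallest that 3 against 3 libraries allow, and 0.217 after adjustment over the 13 ratios computed. The test cannot pass 0.05 at this group size. The groups did not overlap.

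Endothelial markers are given beside these genes. Clec4g and Stab1, both genes of sinusoidal endothelium, passed among 17 (11.8%, against 8.77% of all tested genes). An unadjusted p below 0.05 was found for 10, all of them higher. Of all 12626 tested genes, 3230 (25.6%) were below it, 1582 as higher. The estimates were above 0 in 17 of 17, against 6514 of all 12626 tested genes, with a median log2 fold change of 0.69. Their summed level ranged from 417 to 623 CPM under liraglutide and from 261 to 441 CPM under PBS, so that the groups overlapped, and none was at 0 in all libraries. Among them 7 passed by DESeq2, 11 passed without PBS155 and 0 without PBS158. By DESeq2, 1621 of the 16949 genes with at least 1 count passed (9.56%). The full edgeR fit, on the narrower base of 12626 genes, called 1107 (8.77%). Of all tested genes, 7.56% passed without PBS155 and 3.22% without PBS158.

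Over all libraries, Col4a1 relative to the endothelial sum differed by 0.39 on the log2 scale, with overlapping groups (exact permutation p = 0.3). For Col4a2 relative to that sum the difference was -0.05 (exact permutation p = 0.9). Relative to the summed stellate and fibroblast markers, the ratio of Col4a1 differed by 0.92 and that of Col4a2 by 0.48, both without overlap between groups (exact permutation p = 0.10 each, adjusted 0.217).

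**Figure D2:**
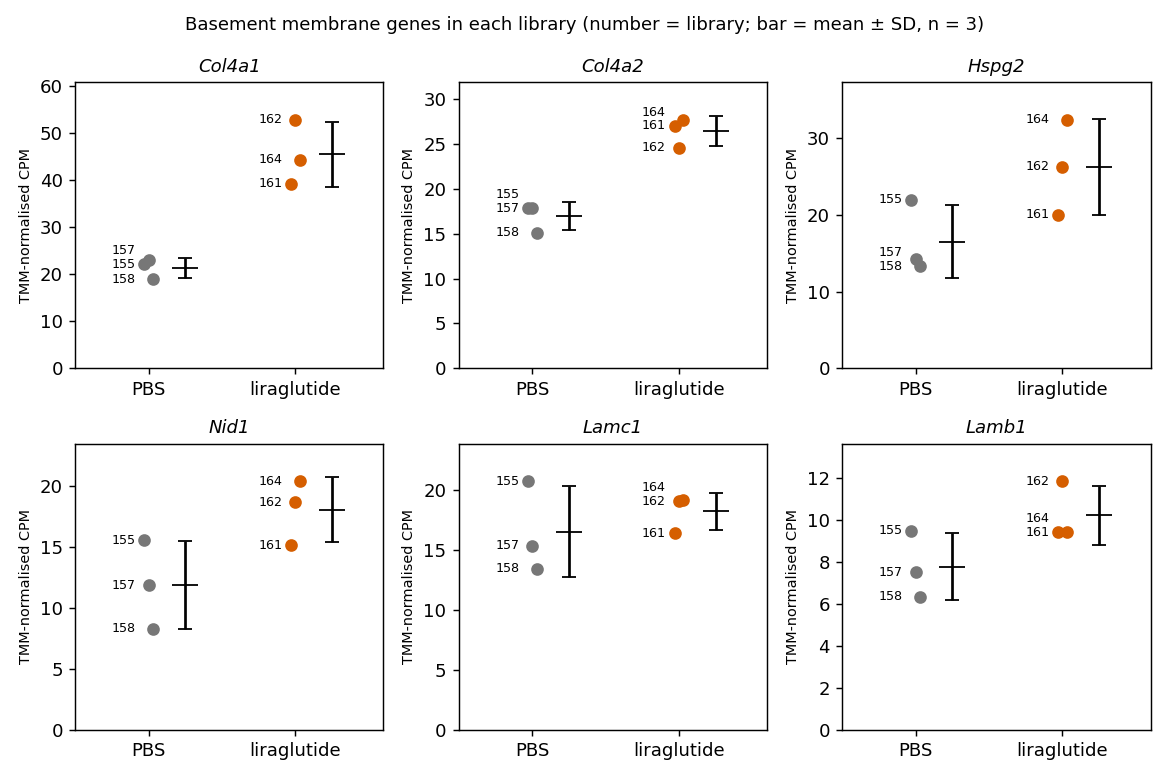
TMM-normalised CPM (y axis, from 0) of Col4a1, Col4a2, Hspg2, Nid1, Lamc1 and Lamb1, a panel each, with grey points for PBS and orange points for liraglutide libraries, the library number beside each point and the mean ± SD (n = 3) as a bar. The liraglutide points of Col4a1 and Col4a2 all lie above the PBS points, while in the other 4 genes PBS155 reaches or exceeds Lira161.

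The other basement membrane genes did not pass. Of 12 genes, Col4a1 and Col4a2 were called and the group's median log2 fold change was 0.38, with 9 of 12 estimates above 0. Hspg2, which encodes perlecan, the heparan sulfate proteoglycan of basement membranes, was at 20.01, 26.3 and 32.4 CPM under liraglutide and at 22.0, 14.3 and 13.3 CPM under PBS. PBS155 exceeded Lira161, so the groups overlapped. Its log2 fold change was 0.66 ± 0.24 (SE; edgeR adjusted p = 0.133), and it passed without PBS155 (0.92, adjusted p = 0.0365) and by DESeq2 (adjusted p = 0.0379).

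Nid1, the nidogen that links laminin to type IV collagen, had a similar layout: 15.1, 18.6 and 20.4 CPM against 15.5, 11.8 and 8.26 CPM. Again PBS155 was above Lira161. The log2 fold change was 0.60 ± 0.22 (edgeR adjusted p = 0.134), and without PBS155 it was 0.83 (adjusted p = 0.0383). Relative to Nid1 and Hspg2, Col4a2 differed by 0.00 and -0.03 on the log2 scale (exact permutation p = 1 each), and Col4a1 by 0.44 and 0.41 (exact permutation p = 0.2 and 0.3). The part of the endothelial markers in the Hspg2 and Nid1 values was not tested.

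No laminin chain passed the test. Lamb1, the beta chain of the common laminins, had a log2 fold change of 0.39 ± 0.18 (edgeR adjusted p = 0.203), with means of 10.2 ± 1.41 and 7.77 ± 1.596 CPM (SD, n = 3). Lamc1, the common gamma chain, was at 16.4, 19.1 and 19.2 CPM under liraglutide and at 20.7, 15.3 and 13.4 CPM under PBS, a log2 fold change of 0.14 ± 0.16 (95% interval -0.23 to 0.51, adjusted p = 0.631). Against Lamc1, the ratio of Col4a1 differed by 0.92 and that of Col4a2 by 0.48 on the log2 scale, without overlap (exact permutation p = 0.10 each). Against Lamb1 the difference was 0.68 for Col4a1 (exact permutation p = 0.10) and 0.24 for Col4a2, with overlap (exact permutation p = 0.3). Lama2, Lama4 and Lamb2 had estimates between 0.34 and 0.48, and Nid2 -0.23, with adjusted p between 0.411 and 0.661.

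Col18a1 and Col15a1 encode collagens that carry endostatin-type domains and sit at basement membrane zones. Col18a1, abundant in liver, was at 941, 927 and 981 CPM under liraglutide and at 1057, 1008 and 1133 CPM under PBS. Every liraglutide library was below every PBS library, but the log2 fold change was only -0.17 ± 0.11 (95% interval -0.41 to 0.08, edgeR adjusted p = 0.373). Col15a1 spread widely, from 3.21 to 9.02 CPM under liraglutide alone (log2 fold change -0.23 ± 0.41, adjusted p = 0.766).

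None of the 5 fibrillar collagens passed, and none had an unadjusted p below 0.05, against 8.77% and 25.6% of all tested genes. Their median log2 fold change was -0.23, the lowest of the 7 role groups. Col3a1, the type III chain of reticular fibres, was at 9.84, 8.42 and 19.1 CPM under liraglutide and at 16.3, 24.4 and 11.6 CPM under PBS. Lira164 lay above 2 of the PBS libraries, and the spread within a group was wide. Its log2 fold change was -0.49 ± 0.40 (edgeR adjusted p = 0.500, 95% interval -1.46 to 0.49).

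Col1a1, the chain that defines scar collagen, was at 2.03, 1.85 and 4.92 CPM against 3.48, 7.28 and 1.49 CPM. The highest and lowest libraries were both PBS. Liraglutide against PBS gave a log2 fold change of -0.48 ± 0.63 (edgeR adjusted p = 0.679, 95% interval -2.0 to 1.04), an interval that holds changes of either sign. Its estimate was 0.22 without PBS157. Col1a2, Col5a1 and Col5a2 had estimates of -0.23, 0.12 and 0.07; without PBS158 Col5a1 was at -0.089 and Col5a2 at -0.20.

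The microfibrillar and fibril-associated collagens showed no called change either, with a median log2 fold change of 0.02 over 4 genes. Col6a1, a chain of the beaded type VI microfibrils, was at 7.86, 9.73 and 12.9 CPM against 8.54, 11.3 and 5.09 CPM (log2 fold change 0.28 ± 0.30, edgeR adjusted p = 0.593). Col14a1, a collagen on the surface of fibrils and the highest of these by CPM, was at 32.9, 31.6 and 37.6 CPM against 45.4, 35.3 and 20.1 CPM. PBS libraries held both its extremes, and its log2 fold change was 0.01 ± 0.28 (adjusted p = 0.982). Without PBS158 it was -0.25. Col6a2 and Col6a3 had estimates of -0.04 and 0.03, and Col6a3 was at -0.12 without PBS158.

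**Figure D3:**
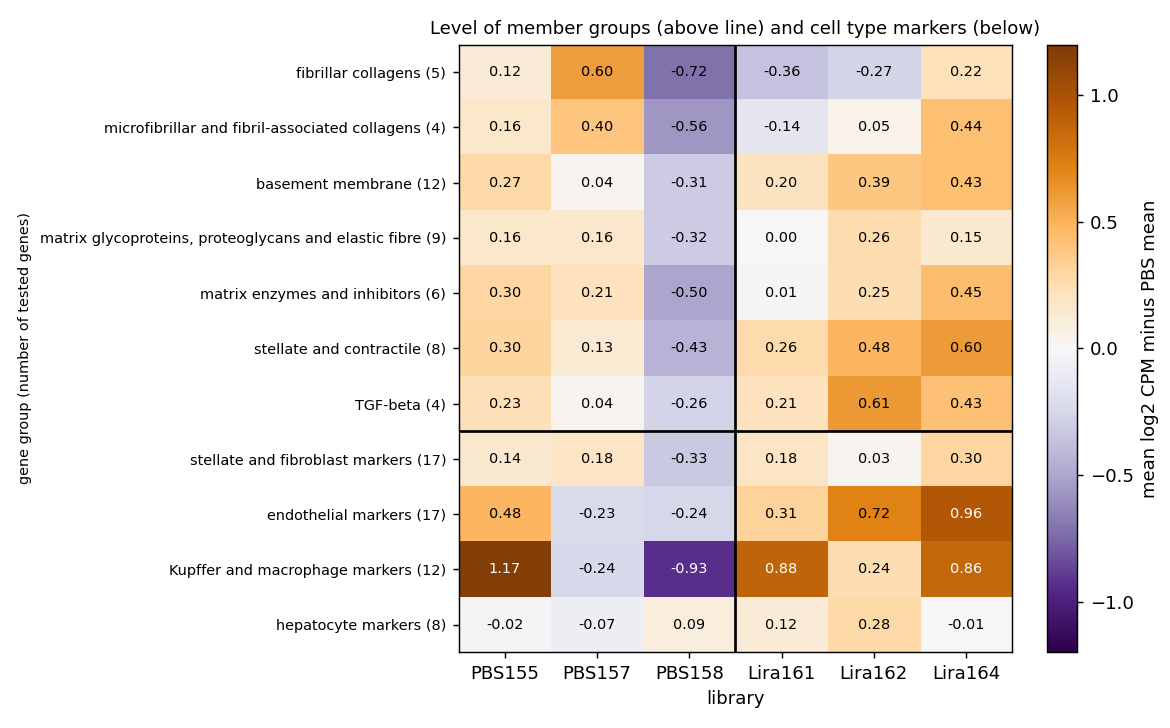
Level of each role group (above the line) and of 4 marker lists (below) in each library (columns), as mean log2 CPM of the tested genes minus the PBS mean; colour and printed value give the level. The fibrillar collagens range from -0.72 in PBS158 to 0.60 in PBS157.

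The level of the fibrillar group spread widely within PBS. This level, the mean log2 CPM of its genes minus the PBS mean, was -0.36, -0.27 and 0.22 in the liraglutide libraries and 0.12, 0.60 and -0.72 in the PBS libraries. The level of the basement membrane group was 0.20, 0.39 and 0.43 against 0.27, 0.04 and -0.31. Stellate and fibroblast markers outside the 50 genes stood at 0.18, 0.03 and 0.30 against 0.14, 0.18 and -0.33. PBS158 was lowest in all these lists, and hepatocyte markers in it stood at 0.09.

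Matrix glycoproteins, proteoglycans and elastic fibre genes had a median log2 fold change of 0.22 over 9 genes, and none passed. Ecm1, a secreted glycoprotein known to hold TGF-beta in its latent form in liver, was at 145, 143 and 145 CPM under liraglutide and at 125, 106 and 84.0 CPM under PBS. The liraglutide libraries were almost equal and all above PBS. Its log2 fold change was 0.46 ± 0.14 (SE, 95% interval 0.15 to 0.77), with an edgeR adjusted p of 0.0721. It passed without PBS155 (0.59, adjusted p = 0.0246), without the filter on low counts (adjusted p = 0.0445) and by DESeq2 (adjusted p = 0.0307).

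Fn1, fibronectin, which hepatocytes secrete into plasma, was at 1694, 1585 and 1779 CPM under liraglutide and at 2051, 1667 and 1758 CPM under PBS. PBS155 was the highest and Lira162 the lowest. The log2 fold change was -0.11 ± 0.13 (95% interval -0.40 to 0.17, edgeR adjusted p = 0.612). The small leucine-rich proteoglycans, which bind collagen fibrils, had estimates of 0.36 for Dcn (decorin), 0.42 for Lum (lumican) and 0.26 for Bgn (biglycan), with adjusted p between 0.198 and 0.365. In each of the 3, PBS158 was the lowest library, and for Dcn it was at 118 CPM against 159 to 209.6 CPM in the others. Eln, the elastin gene, and Fbln5, which helps to assemble elastic fibres, had estimates of -0.42 and -0.14, and Sparc and Thbs1, matricellular proteins, 0.22 and 0.14.

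No matrix enzyme or inhibitor passed among the 6 tested of 8, whose median log2 fold change was 0.22. Mmp14, a membrane-bound collagenase that activates the gelatinase Mmp2, was at 39.5, 56.9 and 42.9 CPM under liraglutide and at 34.0, 29.4 and 39.9 CPM under PBS. PBS158 lay just above Lira161. Liraglutide against PBS gave a log2 fold change of 0.43 ± 0.16 (edgeR adjusted p = 0.129). Timp3, an inhibitor of metalloproteinases that is bound to matrix, was at 21.6, 29.7 and 36.4 CPM against 27.1, 14.002 and 16.4 CPM (log2 fold change 0.61 ± 0.29, adjusted p = 0.256). Its exons overlap those of Syn3 on the other strand over 21.3% of their length, so its counts are uncertain.

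Mmp2 and Timp2, which act together with Mmp14 on the cell surface, had estimates of 0.16 and 0.11, and both were at -0.12 without PBS158. Loxl1 and Loxl2, which crosslink elastin and collagen, had -0.52 and 0.29, with edgeR adjusted p of 0.472 and 0.646. Loxl2 was at -0.031 without PBS158. Timp1, an inhibitor that is strongly induced in injured liver, had 2, 3 and 0 counts under liraglutide and 1, 4 and 0 under PBS. Lox had 0, 14 and 3 counts against 3, 5 and 0. At this depth no difference was detectable for Timp1 or Lox.

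The stellate and contractile genes had the highest median of the role groups, 0.42, with all 8 estimates above 0 and none past the threshold. Without PBS158, Pdgfrb and Tagln were at -0.11 and -0.03. Hgf, the hepatocyte growth factor made by stellate and endothelial cells, was at 13.8, 16.6 and 23.2 CPM under liraglutide and at 14.3, 8.65 and 5.33 CPM under PBS. PBS155 was above Lira161 and PBS158 far below the rest. The log2 fold change was 0.92 ± 0.37 (edgeR adjusted p = 0.184). It was 1.34 without PBS155 (adjusted p = 0.0442), 0.64 without PBS158 (adjusted p = 0.279), and it passed by DESeq2 (adjusted p = 0.0242).

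Pdgfra, a receptor for platelet-derived growth factor carried by stellate cells and fibroblasts, was at 9.69, 15.5 and 11.04 CPM against 9.23, 8.52 and 4.90 CPM. The groups did not overlap, by a small margin between Lira161 and PBS155. Liraglutide against PBS gave a log2 fold change of 0.67 ± 0.26 (edgeR adjusted p = 0.155). Pdgfrb, the receptor that drives stellate proliferation, had an estimate of 0.05 ± 0.20 (95% interval -0.40 to 0.50, adjusted p = 0.903). Whether Pdgfra and Pdgfrb differ in their response was not tested.

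Reln, reelin, a secreted glycoprotein of quiescent stellate and lymphatic endothelial cells, had the highest CPM of this group. It was at 70.4, 78.9 and 83.7 CPM under liraglutide and at 77.9, 55.2 and 32.4 CPM under PBS, where PBS155 lay within the liraglutide range. Its log2 fold change was 0.49 ± 0.30 (edgeR adjusted p = 0.353). Colec11, a collectin of the lectin complement pathway, and Des, the stellate intermediate filament desmin, had estimates of 0.21 and 0.35.

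The contractile markers of myofibroblasts were low. Acta2, smooth muscle actin, was at 0.820, 0.618 and 1.54 CPM under liraglutide and at 0.806, 0.514 and 0.528 CPM under PBS. Lira164 stood above the other 5 libraries, and the rest overlapped. The log2 fold change was 0.67 ± 0.42 (edgeR adjusted p = 0.356). Tagln, an actin-binding protein of contractile cells, was at means of 3.35 ± 0.87 and 3.09 ± 0.62 CPM (SD, n = 3; log2 fold change 0.12, adjusted p = 0.802), but 62.4% of its exon length overlaps an antisense gene, so its counts are uncertain.

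Among the TGF-beta genes, Ctgf stood highest and did not pass. Ctgf encodes a matricellular protein induced by TGF-beta and by the YAP pathway. It was at 7.81, 19.3 and 8.37 CPM under liraglutide and at 5.57, 5.40 and 6.96 CPM under PBS, so Lira162 lay far above the others while the groups did not overlap. Liraglutide against PBS gave a log2 fold change of 0.99 ± 0.37 (edgeR adjusted p = 0.147), and it was 0.43 without Lira162 (adjusted p = 0.277). DESeq2 gave an adjusted p of 0.0199. An overlap with a noncoding gene on the other strand covers 23.2% of its exon length.

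Tgfb1, the ligand itself, was at 7.96, 8.92 and 13.2 CPM under liraglutide and at 10.6, 5.48 and 3.94 CPM under PBS. PBS155 was above 2 of the liraglutide libraries. The log2 fold change was 0.58 ± 0.38 (edgeR adjusted p = 0.389), 1.07 without PBS155 (adjusted p = 0.0466) and 0.31 without PBS158 (adjusted p = 0.648). Markers of Kupffer cells and macrophages, which also make TGF-beta, varied in the same order within PBS: their level was 1.17, -0.24 and -0.93 in PBS155, PBS157 and PBS158 and 0.88, 0.24 and 0.86 under liraglutide. Their part in the Tgfb1 values was not tested. None of their 12 markers passed or had an unadjusted p below 0.05, none passed by DESeq2, and 4 passed without PBS155. Of all tested genes, 25.6% had an unadjusted p below 0.05 in the full fit, and 7.56% passed without PBS155.

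The receptors were more even. Tgfbr1, the type I receptor kinase and the highest of these genes by CPM, was at 36.2, 38.5 and 37.7 CPM against 37.3, 34.9 and 30.7 CPM (log2 fold change 0.13 ± 0.10, edgeR adjusted p = 0.463). Tgfbr2, which binds the ligand, was at 30.4, 31.3 and 30.2 CPM against 32.6, 40.3 and 21.5 CPM. Its 3 liraglutide libraries fell inside the PBS range (log2 fold change -0.04 ± 0.20, 95% interval -0.50 to 0.43).

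Levels per kilobase of annotated exon put secreted products of hepatocytes and stellate cells first. In this order of levels, Fn1 had a mean of 150.3 CPM per kb over the 6 libraries and Col18a1 144, and their libraries overlapped, from 136 to 176 and from 132 to 161.4. Ecm1 followed at 49.5 CPM per kb, Dcn at 30.4, Colec11 at 22.0, Bgn at 13.0 and Sparc at 9.47. Dcn and Colec11 overlapped across libraries, as PBS158 had 20.2 for Dcn while Lira161 had 25.0 for Colec11. Lama2, at 0.0985, was the lowest tested gene. The length is the union of all annotated exons, so genes with long rare isoforms, such as Reln, are understated.

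**Figure D4:**
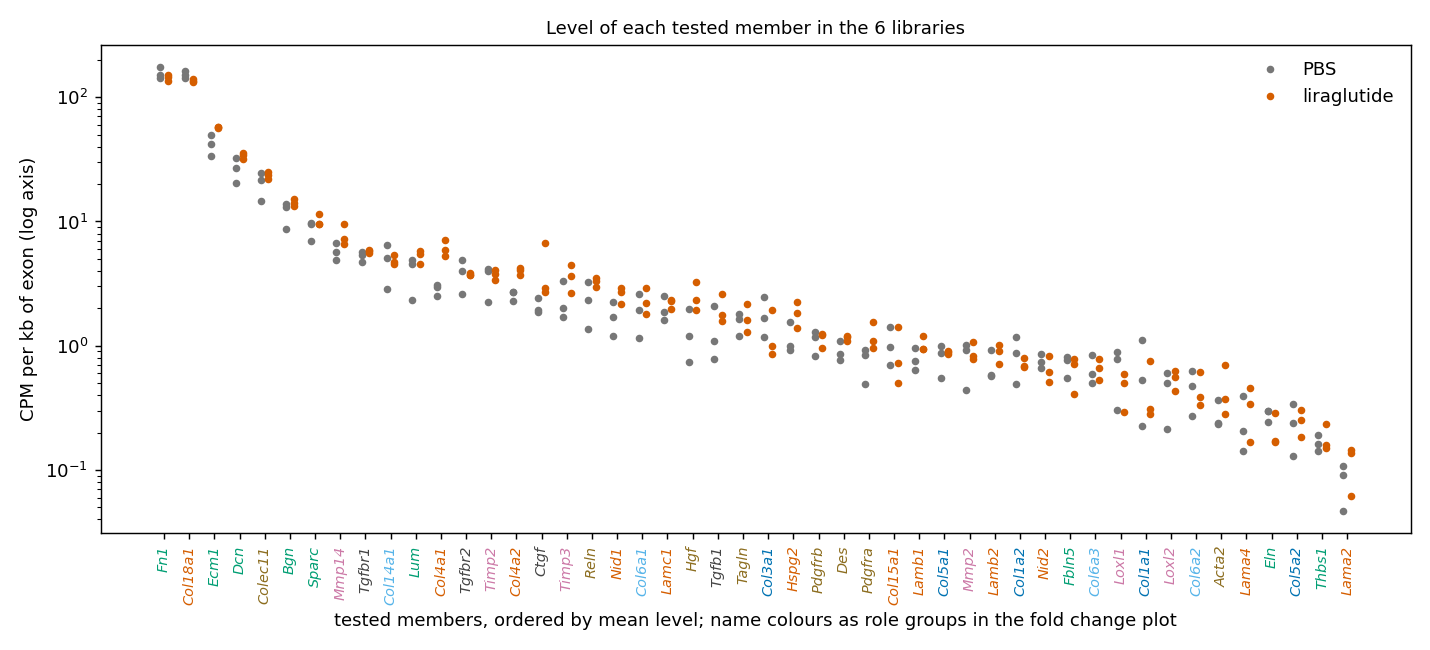
CPM per kilobase of exon (y axis, log scale) of the 48 tested genes, ordered by mean level along the x axis, with grey points for PBS and orange points for liraglutide libraries; the colour of a name gives its role group. Fn1 and Col18a1 stand apart at the top, from 132 to 176, and the orange points of Col4a1 all lie above its grey points.

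Genes outside the 50, from 17 lists of matrix and signalling genes and of cell type markers, gave the surroundings. Of 204 tested, 19 passed, 12 higher and 7 lower, beside the 8.77% of all tested genes. Of 14 other basement membrane genes 4 passed. Lamb3, the beta chain of epithelial laminin 332, rose from 18.9 ± 1.95 to 40.1 ± 6.21 CPM (log2 fold change 1.09, edgeR adjusted p = 0.00399), while Lama3, the alpha chain of the same trimer, fell from 10.2 ± 1.74 to 3.48 ± 0.642 CPM (-1.55, adjusted p = 0.00399). Tinagl1, a secreted basement membrane protein, had 0.90 (adjusted p = 0.0196), and Npnt, nephronectin, an integrin ligand, 3.02 from a low level (adjusted p = 0.0204). The calls of Lamb3 and Lama3 held with each library left out. That of Tinagl1 was lost without PBS158 or Lira162 (up to an adjusted p of 0.0789) and that of Npnt without Lira161, Lira162, PBS155 or PBS158 (up to 0.0822). Of all tested genes, 8.77% passed with all libraries, 3.62% without Lira161 and 3.09% without Lira162. The share was 11.7% without Lira164, 7.56% without PBS155, 5.12% without PBS157 and 3.22% without PBS158.

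Collagen processing gave 1 higher and 1 lower of 18 tested. Ppib, a prolyl isomerase of the endoplasmic reticulum that helps collagen to fold, fell from 160.0 ± 7.76 to 111 ± 4.01 CPM (log2 fold change -0.53, edgeR adjusted p = 0.0102) and held with each library left out, though 25.0% of its exon length overlaps Snx22 on the other strand. P3h1, a collagen prolyl 3-hydroxylase, had 0.60 (adjusted p = 0.0223). Of 22 interstitial matrix genes, Col13a1, a transmembrane collagen, and Emilin1, an elastic fibre glycoprotein, were higher (1.28 and 0.73), and the fibrillar Col27a1 and Col5a3 were lower (-1.81 and -0.72). The call of Col13a1 was lost without PBS158 or Lira162 (up to an adjusted p of 0.0533), and those of P3h1 and Emilin1 without Lira161, Lira162, PBS157 or PBS158 (up to 0.0944). Col27a1 lost it without Lira161, PBS155, PBS157 or PBS158 (up to 0.0771), and Col5a3 without Lira162, PBS155, PBS157 or PBS158 (up to 0.158).

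Among 19 matrix receptors only Itgb3, the beta 3 integrin subunit, passed: it rose from 3.56 ± 0.271 to 8.43 ± 2.29 CPM (log2 fold change 1.24, edgeR adjusted p = 0.0119) and held with each library left out. Of 15 proteases and inhibitors, Adamts1, a secreted proteoglycan-cleaving enzyme, was higher (0.83, adjusted p = 0.0427) and Mmp19 lower (-0.44, adjusted p = 0.050). Adamts1 lost its call without Lira161, Lira162, PBS157 or PBS158 (up to an adjusted p of 0.132), and Mmp19 without any 1 of the 6 libraries (0.0540 to 0.171). The exons of Mmp19 overlap Tmem198b on the other strand over 22.3% of their length.

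In the TGF-beta pathway beyond the 50 genes, 0 of 23 passed in the full edgeR fit and 4 had an unadjusted p below 0.05. DESeq2 called 1 higher and 1 lower. Among all tested genes these shares were 8.77%, 25.6% and, by DESeq2 over the 16949 genes with at least 1 count, 9.56%. The signal transducer Smad2 had -0.43 (edgeR adjusted p = 0.0554) and the ubiquitin ligase Smurf2, which degrades pathway components, -0.31 (adjusted p = 0.121). Without Lira164 the adjusted p was 0.0225 for Smad2 and 0.0197 for Smurf2. Smad2 also passed by DESeq2, without the filter on low counts and without the 10 most abundant genes (adjusted p down to 0.0436). Of 15 growth factor genes that act on stellate cells, Agtr1a, the angiotensin II receptor, passed (0.59, adjusted p = 0.0260), and lost its call without Lira161, Lira162, PBS155, PBS157 or PBS158 (up to 0.0890).

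The 17 stellate and fibroblast markers tested had a median log2 fold change of 0.23, and their sum ranged from 148 to 171 CPM under liraglutide and from 111 to 157.2 CPM under PBS. Smooth muscle markers gave 0 of 5 by edgeR and DESeq2. They gave 0 at an unadjusted p below 0.05, against 25.6% of all tested genes. Mylk had -0.17 (edgeR adjusted p = 0.347) and Myh11 0.32 (adjusted p = 0.509). Among the endothelial markers, Clec4g had 0.78 (adjusted p = 0.0250) and Stab1 0.59 (adjusted p = 0.0290). Clec4g lost its call without Lira161, Lira162, PBS157 or PBS158 (up to an adjusted p of 0.0884) and Stab1 without Lira162, Lira164, PBS157 or PBS158 (up to 0.108). Of all tested genes, 3.09% to 5.12% passed without Lira161, Lira162, PBS157 or PBS158, and 11.7% without Lira164.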

How the data were processed

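RNA-seq of whole mouse liver was analysed from 6 libraries, 3 per group. The authors deposited raw read counts per gene, whole numbers without normalisation. Per the submitters' processing notes, STAR and the build mm10 were used; the counting tool, annotation, strand setting and treatment of multi-mapping reads were not given in the sources used here. Column names carry the group and were used to assign libraries to groups. Libraries within a group differed beyond sampling noise (chi-square per degree of freedom 32.8 to 64.9).

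Genes were kept by filterByExpr, normalised by TMM, and tested in R 4.3.3 by edgeR 4.0.16 (robust quasi-likelihood fit, group as the only term). The 95% intervals and SE come from that fit, and the SE is the size of the log2 fold change over the square root of F. The common biological coefficient of variation was 0.157. List levels used log2 CPM with a prior count of 2. Ratios were tested with scipy 1.17.1. The fit was tested on simulated counts. Alternatives were other scaling, other filters, DESeq2 1.42.0, limma-voom (limma 3.58.1), removal of the 10 most abundant genes and leaving out each library.

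The members and lists were chosen with earlier results of these data known, and the ratios after seeing the members' values. Every member may be named; each library's value is given for called members and, per role group, for the uncalled member with the largest absolute log2 fold change and the one with the highest CPM. Dcn's range and the library values of Nid1, Lamc1, Col1a1, Pdgfra, Acta2, Tgfb1, Tgfbr2, Timp1 and Lox were added after they were seen. Of each of 17 context lists, up to 4 called genes with the smallest p were named, or 2 where none was called. A result that met this rule is not reported here. Of the 50 genes, 49 matched GENCODE M21 by symbol and Ctgf by an older symbol.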

Additional observations from a re-analysis of the deposited data

How the results depend on the processing

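Col4a1 and Col4a2 passed under all 14 alternatives, with log2 fold changes of 0.96 to 1.19 and 0.56 to 0.69, and no member was called lower in any. The count of higher members was 6 by DESeq2 and 2 to 7 with 1 library left out, highest without PBS155. The cause was not tested. By DESeq2, 1621 of the 16949 genes with at least 1 count passed in either direction (9.56%). In the full edgeR fit it was 1107 of 12626. With 1 library left out, 3.09% to 11.7% of all tested genes passed. Members whose groups do not overlap numbered 7 to 18 with a library left out, where fewer libraries are compared. The groups did not overlap in 36.3% to 45.4% of all tested genes in these fits. The members' median log2 fold change was 0.04 (without PBS158) to 0.31 with a library left out. Genes called in the other lists, whose alternatives were chosen after seeing the data, numbered 32 by DESeq2 and 7 to 32 with a library left out; Npnt missed the threshold by limma-voom, Col27a1 without the filter on low counts, and Mmp19 with library totals and limma-voom (adjusted p up to 0.0596). Library totals moved the median of all genes to 0.06. Of 656 values of single members under alternatives, 618 kept their direction and side of the threshold, 10 newly passed, and 28 changed sign, in 16 uncalled genes. With library totals Col6a2 was at 0.012 and Tgfbr2 at 0.0060, and Tgfbr2 was at 0.00245 by limma-voom. The other sign changes came with a library left out, over ranges of -1.09 to 0.22 (Col1a1), -0.50 to 0.083 (Col1a2), -0.089 to 0.29 (Col5a1), -0.20 to 0.42 (Col5a2), -0.34 to 0.25 (Col6a2), -0.12 to 0.27 (Col6a3), -0.25 to 0.28 (Col14a1), -0.74 to 0.069 (Col15a1), -0.32 to 0.084 (Fbln5), -0.10 to 0.25 (Thbs1), -0.12 to 0.26 (Timp2), -0.12 to 0.36 (Mmp2), -0.031 to 0.57 (Loxl2), -0.10 to 0.28 (Tagln), -0.11 to 0.17 (Pdgfrb) and -0.25 to 0.18 (Tgfbr2). A mean CPM of at least 5 left 32 members, so 16 have no value there. No paired analysis was possible because the column names carry no triplicate number of the labels, so libraries share no number across groups. Depth limits the low genes: Timp1 and Lox entered the test only without the filter on low counts or by DESeq2, where neither was called.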

Other observations

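Markers of the other cell types that a piece of liver can hold were read in the same test. Of 9 cholangiocyte markers 1 passed (11.1%, against 8.77% of all tested genes): Spp1, osteopontin, a matrix-binding phosphoprotein of bile duct cells, fell from 36.3 ± 4.01 to 20.5 ± 1.17 CPM (SD, n = 3; log2 fold change -0.82, edgeR adjusted p = 0.00508). Its call held with each library left out (adjusted p up to 0.0243). The list's median was -0.33, with 8 of 9 estimates below 0. The exception was Aqp1, a water channel, at 1.06 (adjusted p = 0.187), named after its value was seen. The list's summed level overlapped between groups, from 134 to 217 CPM under liraglutide and from 101 to 170.2 CPM under PBS. Among 8 hepatocyte markers, Hnf4a, a master regulator of hepatocyte genes, was higher (0.53, adjusted p = 0.0338), and its call was lost without Lira161, Lira162, PBS155 or PBS157 (adjusted p up to 0.122).

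No marker passed in the other lists in the full edgeR fit. The 4 tested mesothelial markers had none with an unadjusted p below 0.05, against 25.6% of all tested genes. Wt1 had -0.80 (edgeR adjusted p = 0.409) and Gpm6a -0.72 (adjusted p = 0.499, and 0.0296 without Lira162). Their sum ranged from 2.03 to 8.15 CPM over the libraries. Among 5 markers of T, NK and B cells 1 had an unadjusted p below 0.05, beside the same 25.6% of all tested genes. Nkg7 had 1.26 (edgeR adjusted p = 0.144) and Cd79b 0.49 (adjusted p = 0.567). Of the adipocyte markers only Cfd could be tested (-2.47, edgeR adjusted p = 0.0544), and Retn was at 0 in all libraries. Cfd was low, with means of 0.21 CPM under liraglutide and 1.18 CPM under PBS. It passed with Lira164 or PBS157 left out (adjusted p down to 0.0184). It also passed without the filter on low counts and by DESeq2 (adjusted p down to 0.00811). Pancreatic acinar markers summed to at most 0.144 CPM, with Pnlip and Cel at 0 in all libraries. In the Kupffer list Clec4f had 0.63 (adjusted p = 0.348) and Cd68 0.52 (adjusted p = 0.448).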
